A study of Rattus norvegicus with 15 samples.

Results

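The BCL2 family decides whether a cell opens its mitochondria and dies. The guardians Bcl2, Bcl2l1 (BCL-XL), Bcl2l2 (BCL-w) and Mcl1 hold death back by binding pro-death relatives. Bak1 and its relative Bok belong to the effectors, which make pores in the outer mitochondrial membrane and so release cytochrome c. Bid, Bad, Bcl2l11 (BIM) and Bmf are BH3-only proteins, which carry a single short binding helix and act as the sensors of stress. They activate the effectors or occupy the guardians. X-rays break DNA, and damaged cells weigh repair and arrest against this form of death, in which transcription, protein turnover and cleavage of these proteins all take part. Here the messenger RNA of these 10 genes was followed in rat cells labelled as brain microvascular endothelial cells (BMECs), grown from small vessels of the cerebral cortex. The members were chosen by gene name. A transcript row counted when it carried that name, or when it had no name of its own and lay in an assembled locus that held only that name, and the FPKM of these rows were summed per gene and library. FPKM is the number of fragments per kilobase of transcript, scaled to the mapped fragments of its library, so levels can be compared between genes. By this rule 9 of the 10 genes had a value, of 37367 genes in all, and Mcl1 was not analysed here. All 9 passed the filter on low values, an average FPKM of 0.5 or more, which left 17895 genes in the test.

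Messenger RNA was selected by its poly-A tail in 15 libraries, 3 biological replicates in each of 5 groups. The primary cultures came from Sprague Dawley littermates aged 2 to 3 weeks, of both sexes, and the labels name no transgene or deletion. The control group was handled like the others without x-rays and is labelled as cultured for 12 h. The remaining groups received x-rays, 5 Gy or 20 Gy, and were harvested at 12 h or at 24 h. A 24 h culture without x-rays was not analysed here, so longer culture and longer time since exposure cannot be told apart at 24 h. The cultures shared littermates, and no label ties a library to an animal, so p-values measure the spread between these libraries. Depth, read from the steps between low FPKM values, was 5.44 to 7.49 gigabases of aligned sequence per library. The endothelial label was checked against 14 marker genes, of which 12 had a row. Only Flt1 (mean FPKM 3.31) and Ocln (1.78) averaged at least 1, Cdh5 averaged 0.076 and Cldn5 0.004, and Tie1 and Emcn were listed at 0 in every library. The summed FPKM of these genes was 3.01 to 8.93 in each library, so the marker values go against the endothelial label. Of 7 fibroblast markers, 6 averaged at least 1, and their summed FPKM was 1798 to 1987 in the control libraries, 1273 to 1547 at 12 h and 272 to 326 at 24 h. Most of that sum was collagen message, with mean FPKM of 516 (Col1a1), 414 (Col1a2) and 535 (Col3a1) in the control group and 22.4 to 36.6 at 24 h. Pdgfra was not lower, at 52.1 in the control group and 60.8 and 51.6 in cells 24 h after 5 Gy and 20 Gy. Of 7 pericyte and smooth muscle markers, 2 averaged at least 1 (Pdgfrb and Cspg4), Kcnj8 and Abcc9 were at 0 in every library, and the sum was 54.9 to 62.6 in the control libraries, 43.0 to 48.4 at 12 h and 16.3 to 28.7 at 24 h. Of 4 astrocyte markers 2 averaged at least 1 (Aldh1l1 and Slc1a2), Gfap averaged 0.056 and Aqp4 was at 0 in every library. Their sum was 10.7 to 12.97 in the control libraries and 17.9 to 31.3 in the 12 exposed libraries, carried by Aldh1l1 (9.52 in the control group, 20.8 to 24.1 in the exposed groups). Slc1a2 went the other way, with 2.35 in the control group and 0.822 to 1.38 in the exposed groups. The fibroblast and pericyte sums were thus lower, and the astrocyte sum higher through Aldh1l1 alone, beside every result at 12 h and at 24 h below. The part of these sums in those results was not tested. In bulk RNA, fewer cells of a type and less RNA per cell cannot be told apart.

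The promoters of 3 members whose messages changed at 24 h and of Bcl2l2 are shown, because they differ in base composition and in the binding motifs they hold. They are the 250 bases before the annotated start of each gene, taken from RefSeq on GRCr8, a later build than the Rnor_6.0 of the expression values. Of the 10 members, 9 had a promoter sequence there, and Bok had none. Capitals mark matches, on either strand, to the FOXO core TGTTTAC, the CCAAT box CCAAT and the GC box GGGCGG. The matches printed do not overlap one another.
Bcl2l11, chr3:135819792-135820041, plus strand: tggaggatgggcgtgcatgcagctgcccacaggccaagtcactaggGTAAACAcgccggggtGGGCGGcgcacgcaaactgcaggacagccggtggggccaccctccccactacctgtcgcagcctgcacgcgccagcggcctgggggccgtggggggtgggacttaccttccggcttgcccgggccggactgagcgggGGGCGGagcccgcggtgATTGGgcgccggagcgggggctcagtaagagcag
Bmf, chr3:125974065-125974314, minus strand: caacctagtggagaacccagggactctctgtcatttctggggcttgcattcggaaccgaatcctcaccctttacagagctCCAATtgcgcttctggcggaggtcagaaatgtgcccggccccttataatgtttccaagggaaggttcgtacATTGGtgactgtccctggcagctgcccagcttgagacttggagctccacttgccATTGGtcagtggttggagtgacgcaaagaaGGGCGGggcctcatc
Bcl2, chr13:23366901-23367150, minus strand: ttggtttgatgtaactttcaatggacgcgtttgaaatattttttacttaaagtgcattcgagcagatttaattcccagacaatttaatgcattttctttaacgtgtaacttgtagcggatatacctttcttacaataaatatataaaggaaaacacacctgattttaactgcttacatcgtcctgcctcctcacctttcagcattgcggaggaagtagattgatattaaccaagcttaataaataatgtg
Bcl2l2, chr15:32326511-32326760, plus strand: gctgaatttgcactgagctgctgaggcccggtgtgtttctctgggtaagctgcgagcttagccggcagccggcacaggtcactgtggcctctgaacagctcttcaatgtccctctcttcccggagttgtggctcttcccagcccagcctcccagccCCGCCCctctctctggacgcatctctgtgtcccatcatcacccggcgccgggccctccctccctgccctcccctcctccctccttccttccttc

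In the Bcl2l11 sequence, 72.0% of the bases were G or C. It held a FOXO core 204 bases before the start, a motif present in 3.2% of the 33469 rat promoter windows of this length, and 2 GC boxes and a CCAAT box. The Bmf sequence was 55.2% G and C and held 3 CCAAT boxes, at 170, 99 and 45 bases, and a GC box at 15 bases before the start. CCAAT boxes were present in 34.0% and GC boxes in 30.5% of all windows. The Bcl2 sequence was only 33.6% G and C and held none of these motifs, and that of Bcl2l2 was 64.0% G and C with a GC box at 94 bases. Among the other members, the FOXO core was also found in the Bad window, 118 bases before the start. Searches for the AP-1 motif TGANTCA (6.3% of windows), the E-box CACGTG (5.6%) and the p53 half-site (6.6%) found no match in the window of any member. A match describes letters only, and binding was not measured.

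Compared with the control group, few members were called 12 h after exposure, and at 24 h members on both sides of the death decision were. A gene was called where its Benjamini-Hochberg adjusted p over all 17895 genes was under 0.05 and it changed at least 1.5-fold, in a limma model of log2(FPKM + 1) with 1 mean per group. At 12 h, 1 of 9 members was called after 5 Gy (Bok, lower), where 9.94% of all genes were called, 4.98% higher and 4.96% lower. After 20 Gy 1 of 9 was called (Bcl2l2, higher), where 8.54% of all genes were, 4.90% higher and 3.64% lower. At 24 h, 4 of 9 members were called after each dose, and they were the same genes. Bcl2l11 and Bmf were higher, and Bcl2 and Bok were lower. The share of all genes called was 41.3% after 5 Gy (20.5% higher, 20.8% lower) and 40.3% after 20 Gy (17.0% higher, 23.3% lower), so the members were called about as often as any gene. The median log2 fold change of the 9 members at 24 h was -0.46 after 5 Gy and 0.10 after 20 Gy, and that of all genes was -0.05 and -0.14. The member median after 20 Gy is the value of Bcl2l2, which was -1.17 with unnamed rows within the gene added by position. The sign of that median thus rests on how the rows of Bcl2l2 were counted. On the log2(FPKM + 1) scale the changes of low genes are understated.

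**Figure D1:**
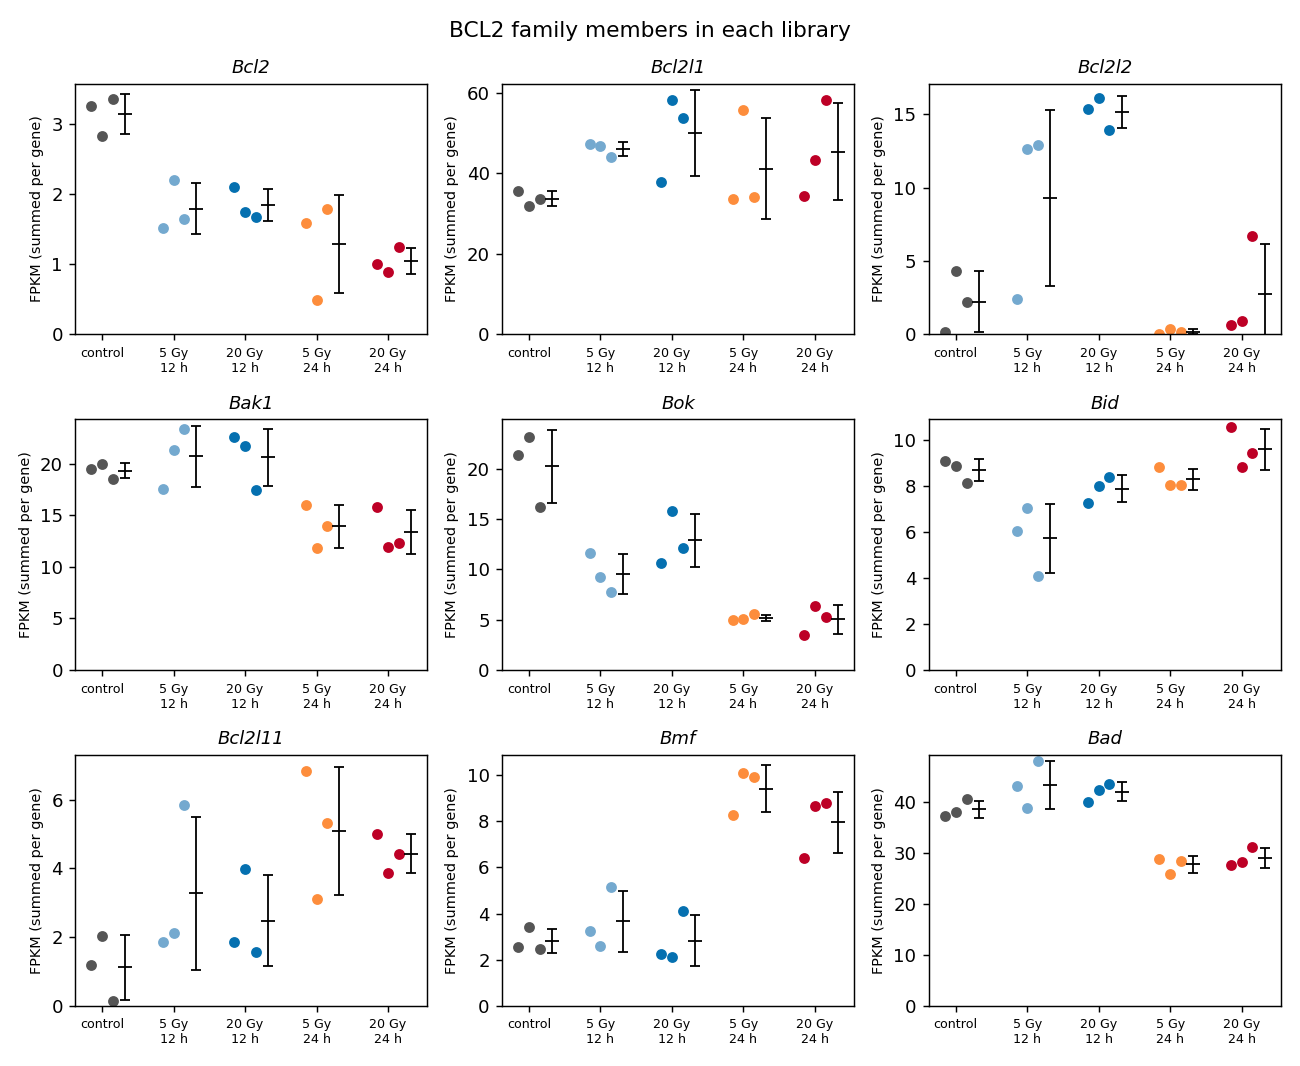
FPKM summed per gene (linear axes from 0) in each library of the 5 groups, for the 9 members with values, with each group's mean and SD (n = 3) as a bar beside its points. Bok and Bcl2 were lower and Bmf higher in all 6 libraries at 24 h than in any control library, and the replicates of Bcl2l2 differed many-fold in 4 of the 5 groups.

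Counted by the rule and in order of mean level over the 15 libraries, Bcl2l1 was the most abundant member. Bad, Bak1, Bok, Bid, Bcl2l2, Bmf, Bcl2l11 and Bcl2 followed. In the control libraries, the guardian Bcl2l1 (33.7 ± 1.85 FPKM, SD, n = 3) and the sensitizer Bad (38.7 ± 1.67) were the 2 most abundant members, and Bad was above Bcl2l1 in all 3 libraries. Bok (20.2 ± 3.64) and Bak1 (19.4 ± 0.739) overlapped. Bid (8.70 ± 0.486) was lower than these and higher than the rest, and Bcl2 (3.15 ± 0.283), Bmf (2.83 ± 0.523), Bcl2l2 (2.22 ± 2.10) and Bcl2l11 (1.11 ± 0.948) formed a low group whose values overlapped in part. This order depended on the rows counted. Without unnamed rows under 500 bases, Bcl2l1 was at 17.3 ± 3.74 in the control group, below the means of Bok and Bak1. With unnamed rows within the gene added by position, Bcl2l2 was at 17.7 ± 1.80 there, above Bid. At 24 h, Bok and Bmf had changed places, with Bmf (9.42 ± 1.01 after 5 Gy and 7.95 ± 1.34 after 20 Gy) above Bok (5.19 ± 0.314 and 5.04 ± 1.44) in all 6 libraries.

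Among the guardians, Bcl2 itself was lower at 24 h. On Rnor_6.0 it lies on chromosome 13, 26605426 to 26769374, minus strand. The control libraries held 3.26, 2.82 and 3.36 FPKM. At 12 h the values were 1.52, 2.20 and 1.65 after 5 Gy and 2.10, 1.75 and 1.67 after 20 Gy. At 24 h they were 1.58, 0.485 and 1.79 after 5 Gy and 1.00, 0.881 and 1.25 after 20 Gy. All 12 exposed libraries were below the lowest control library, and replicate 2 of the cells harvested 24 h after 5 Gy was far below its 2 partners. The log2 fold change at 24 h was -0.91 ± 0.198 (SE; adjusted p = 0.0015) after 5 Gy and -1.02 ± 0.198 (adjusted p = 6.8e-04) after 20 Gy. At 12 h it was -0.58 (adjusted p = 0.060) and -0.55 (adjusted p = 0.079), short of the threshold. The fall at 24 h also held when any library was left out, with -0.62 after 5 Gy without replicate 2 of the exposed group. With 8.43 to 41.1 kilobases of aligned sequence per library, Bcl2 was among the thinnest measured members. Its most abundant annotated transcript, ENSRNOT00000003768, went from 1.64 ± 0.133 FPKM in the control group to 0.554 ± 0.338 in cells 24 h after 20 Gy.

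Bcl2l1, by the rule the guardian with the highest message level, was not called in any comparison. It lies on chromosome 3, 148259596 to 148313810, minus strand. Its FPKM was 35.5, 31.8 and 33.6 in the control libraries, 47.3, 46.7 and 44.0 in cells 12 h after 5 Gy and 37.9, 58.2 and 53.8 in cells 12 h after 20 Gy. All 6 libraries at 12 h were above the control group. At 24 h the values were 33.7, 55.7 and 34.1 after 5 Gy and 34.4, 43.3 and 58.2 after 20 Gy, where replicate 2 stood far above its partners after 5 Gy and the libraries after 20 Gy ran from the control level to well above it. The log2 fold changes were 0.44 and 0.53 at 12 h and 0.24 and 0.39 in cells 24 h after 5 Gy and 20 Gy, with adjusted p of 0.18, 0.11, 0.35 and 0.14. The sum hides several rows. An assembled transcript, MSTRG.15793.1, carried 9.02 ± 5.34 FPKM in the control group and 18.7 ± 0.513 in cells 12 h after 5 Gy and 15.1 ± 11.2 in cells 24 h after 5 Gy, where it varied nearly as widely as the sum. The unnamed assembled rows MSTRG.15793.4 and MSTRG.15793.5, of 209 and 312 bases, together held a large part of the sum and were steady, at 11.3 ± 1.71 and 5.07 ± 0.763 in the control group and 12.2 ± 3.14 and 6.96 ± 0.741 in cells 24 h after 20 Gy. Without unnamed rows under 500 bases, a setting added after the values were seen, Bcl2l1 was at 17.3 ± 3.74 FPKM in the control group and at 26.3 ± 2.76 and 30.1 ± 8.88 at 12 h.

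For Bcl2l2, the result depended on how unnamed transcripts were counted. It lies on chromosome 15, 33544312 to 33549164, plus strand, in an assembled locus that also holds Pabpn1, a gene for a poly-A binding protein. By the rule only 1 named row counted. Its FPKM was 0.116, 4.33 and 2.21 in the control libraries, 2.37, 12.7 and 12.9 in cells 12 h after 5 Gy and 15.4, 16.1 and 14.0 in cells 12 h after 20 Gy. At 24 h it was 0.0224, 0.354 and 0.126 after 5 Gy and 0.600, 0.921 and 6.71 after 20 Gy. Replicates of a group differed many-fold, except 12 h after 20 Gy, where all 3 were above every control library. The log2 fold change there was 2.59 ± 0.678 (SE; adjusted p = 0.020). The call was lost when control replicate 1 (1.96) or replicate 1 (2.58), 2 (2.55) or 3 (2.65) of the group exposed to 20 Gy was left out. The other comparisons with control were 1.69 (adjusted p = 0.10) in cells 12 h after 5 Gy, and -1.20 (0.14) and 0.10 (0.91) in cells 24 h after 5 Gy and 20 Gy. A call appeared 12 h after 5 Gy without replicate 1 of the exposed group (2.37) and 24 h after 5 Gy without control replicate 1 (-1.83).

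When unnamed rows that lie within the gene were added by position, a setting chosen after the values were seen, Bcl2l2 had 5 rows and replicates stood close together. The sums were then 18.9, 18.6 and 15.6 FPKM in the control libraries, 23.1, 23.5 and 23.9 in cells 12 h after 5 Gy and 24.7, 23.6 and 24.5 in cells 12 h after 20 Gy. At 24 h they were 7.89, 8.73 and 9.20 after 5 Gy and 6.09, 7.51 and 8.50 after 20 Gy. Every 12 h library was above, and every 24 h library below, all 3 control libraries. The log2 fold change was -0.96 ± 0.105 (adjusted p = 5.9e-06) and -1.17 ± 0.105 (adjusted p = 1.2e-06) in cells 24 h after 5 Gy and 20 Gy, past the threshold. At 12 h it was 0.40 (adjusted p = 0.020) and 0.44 (adjusted p = 0.013), short of a 1.5-fold change. The named row held 12.5% of this larger sum in the control group, 62.5% in cells 12 h after 20 Gy and 1.9% in cells 24 h after 5 Gy. The division of reads between rows thus moved by more than the total.

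**Figure D2:**
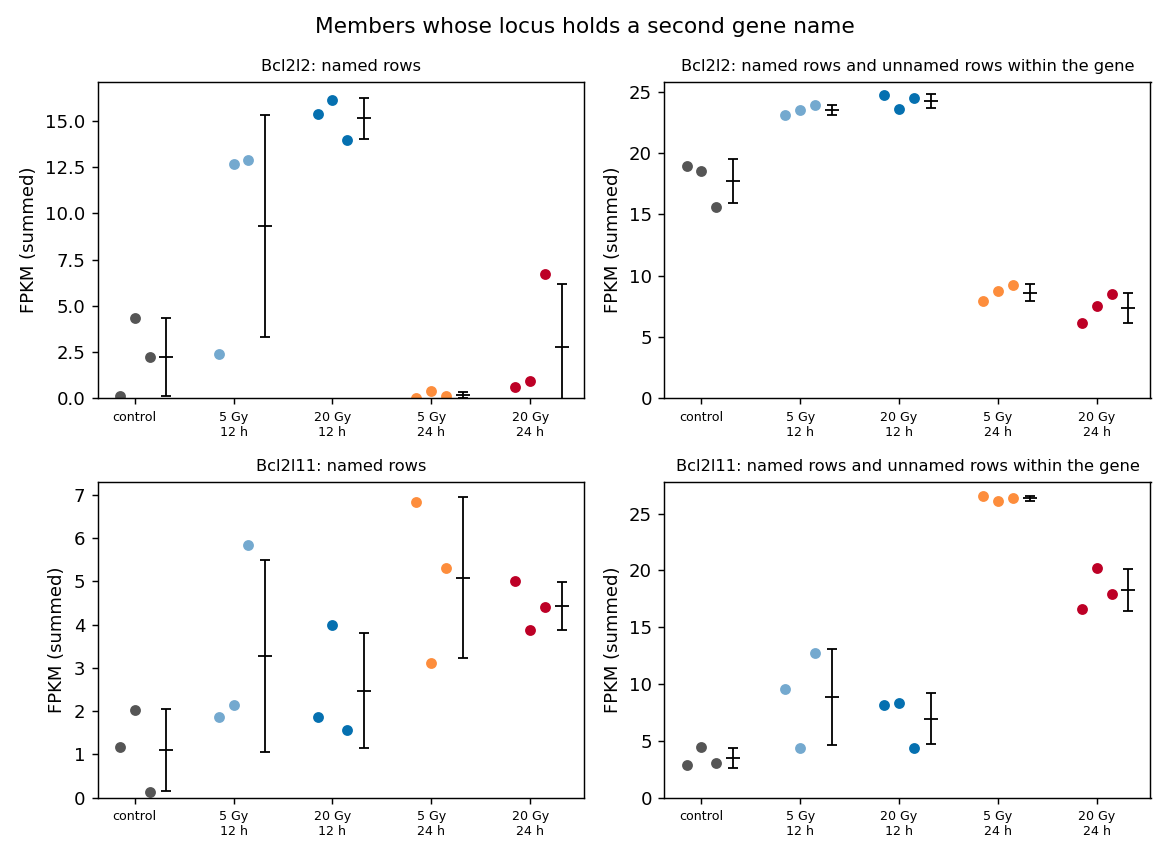
FPKM per library (linear axes from 0) of Bcl2l2 (top) and Bcl2l11 (bottom), summed over the rows of the rule (left) and with unnamed rows inside the gene added by position (right), with the mean and SD of each group (n = 3). With the added rows, the replicates of Bcl2l2 lie close together and the 24 h libraries fall to 6.09 to 9.20, below the control range of 15.6 to 18.9.

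Of the effectors, Bok changed most. It lies on chromosome 9, 100829552 to 100840504, plus strand. The control libraries held 21.4, 23.2 and 16.2 FPKM. At 12 h the values were 11.6, 9.28 and 7.74 after 5 Gy and 10.7, 15.8 and 12.1 after 20 Gy. At 24 h they were 4.95, 5.06 and 5.54 after 5 Gy and 3.48, 6.32 and 5.31 after 20 Gy. All 12 exposed libraries were below the control group, and at each dose the 24 h libraries were below the 12 h libraries. In limma, the log2 fold change was -1.01 ± 0.201 (SE; adjusted p = 0.0039) in cells 12 h after 5 Gy, -1.77 ± 0.201 (adjusted p = 7.9e-06) in cells 24 h after 5 Gy and -1.83 ± 0.201 (adjusted p = 6.2e-06) in cells 24 h after 20 Gy. At 12 h after 20 Gy it was -0.62 ± 0.201 (adjusted p = 0.053), which missed the threshold. It was called there without control replicate 3 (-0.76) or without replicate 2 of the exposed group (-0.77). Of its transcripts, ENSRNOT00000024695 carried most of the message, 16.5 ± 3.25 FPKM in the control group, 4.92 ± 0.117 in cells 24 h after 5 Gy and 4.95 ± 1.48 in cells 24 h after 20 Gy. The minor transcript ENSRNOT00000024526 held 3.21, 4.71 and 2.65 FPKM in the control libraries. It held 0, 0.707 and 0.613 in cells 12 h after 5 Gy and 0.508, 0 and 0 in cells 12 h after 20 Gy, and was listed at 0 in all 6 libraries at 24 h. Its log2 fold change in the test of single transcripts was -1.66 in cells 12 h after 5 Gy and -1.95 in cells 12 h after 20 Gy, and both were called (adjusted p = 0.0022 and 8.2e-04).

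Bak1, on chromosome 20, 5609625 to 5618260, minus strand, moved less. Its FPKM was 19.5, 20.0 and 18.6 in the control libraries, 17.5, 21.3 and 23.4 in cells 12 h after 5 Gy and 22.7, 21.8 and 17.5 in cells 12 h after 20 Gy, with overlapping ranges. At 24 h it was 16.0, 11.8 and 14.0 after 5 Gy and 15.8, 12.0 and 12.3 after 20 Gy, and all 6 libraries were below the control group. On the log2 scale, the change at 24 h was -0.46 ± 0.142 (SE; adjusted p = 0.014) after 5 Gy and -0.51 ± 0.142 (adjusted p = 0.0077) after 20 Gy. Both were past the p threshold and short of a 1.5-fold change, and the second passed both without replicate 1 of the exposed group (-0.63). At 12 h it was 0.09 and 0.08 after 5 Gy and 20 Gy (adjusted p = 0.73 and 0.77), and by named rows alone it was -0.04 and -0.51.

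Among the BH3-only sensors, Bcl2l11 and Bmf were both higher at 24 h. Bmf, whose protein is known for its tie to the cytoskeleton, lies on chromosome 3, 110306067 to 110324084, minus strand. The control libraries held 2.57, 3.43 and 2.48 FPKM. At 12 h the values were 3.26, 2.58 and 5.13 after 5 Gy and 2.24, 2.11 and 4.10 after 20 Gy, which overlapped the control range. At 24 h they were 8.26, 10.1 and 9.91 after 5 Gy and 6.41, 8.66 and 8.79 after 20 Gy, and all 6 libraries were above every library of the other groups. The fitted log2 change was 1.45 ± 0.222 (SE; adjusted p = 1.0e-04) after 5 Gy and 1.22 ± 0.222 (adjusted p = 4.1e-04) after 20 Gy at 24 h. At 12 h it was 0.25 (adjusted p = 0.48) and -0.03 (adjusted p = 0.95). The promoter of Bmf is the printed sequence with 3 CCAAT boxes.

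Bcl2l11 encodes BIM, which binds all guardians and can activate the effectors directly. It lies on chromosome 3, 120726906 to 120764192, plus strand, in a locus that also holds Acoxl, so only its 2 named rows counted by the rule. The control libraries held 1.17, 2.03 and 0.139 FPKM, and at 12 h the values were 1.86, 2.13 and 5.84 after 5 Gy and 1.86, 3.99 and 1.57 after 20 Gy. At 24 h they were 6.83, 3.12 and 5.32 after 5 Gy and 5.00, 3.88 and 4.42 after 20 Gy. All 6 libraries at 24 h were above the control group, while the 12 h libraries overlapped both. In the model, the log2 fold change at 24 h was 1.59 ± 0.405 (SE; adjusted p = 0.0045) after 5 Gy and 1.47 ± 0.405 (adjusted p = 0.0073) after 20 Gy. It was 1.01 (adjusted p = 0.10) and 0.76 (adjusted p = 0.23) at 12 h.

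With the unnamed rows inside the gene added by position, Bcl2l11 had 6 rows and higher levels, 2.92, 4.51 and 3.04 FPKM in the control libraries, 9.56, 4.35 and 12.7 in cells 12 h after 5 Gy and 8.19, 8.37 and 4.35 in cells 12 h after 20 Gy. At 24 h the sums were 26.6, 26.1 and 26.4 after 5 Gy and 16.6, 20.2 and 17.96 after 20 Gy, above every library of the earlier groups. In limma, the log2 fold change then was 2.63 ± 0.296 (adjusted p = 7.1e-06) and 2.12 ± 0.296 (adjusted p = 4.8e-05) at 24 h, larger than by the rule. At 12 h after 5 Gy it was 1.05 (adjusted p = 0.025) and was called, and after 20 Gy it was 0.80 (adjusted p = 0.084) and was not. Both 12 h groups overlapped the control range. Of the named rows, ENSRNOT00000022596 was listed at 0 in 2 of 3 control libraries and at 1.85, 1.13 and 1.12 FPKM 24 h after 5 Gy. ENSRNOT00000051069 carried more of the message, with 1.03 ± 0.833 in the control group and 3.72 ± 1.55 in cells 24 h after 5 Gy.

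Bad and Bid took other courses. Bad, which is held in the cytosol when phosphorylated, lies on chromosome 1, 222198534 to 222207453, plus strand. Its FPKM was 37.4, 38.1 and 40.6 in the control libraries, 43.3, 38.9 and 48.2 in cells 12 h after 5 Gy and 40.1, 42.5 and 43.7 in cells 12 h after 20 Gy. At 24 h it was 28.9, 25.9 and 28.5 after 5 Gy and 27.7, 28.3 and 31.3 after 20 Gy, and all 6 libraries were below every other library. On the log2 scale, the change at 24 h was -0.46 ± 0.0841 (SE; adjusted p = 3.9e-04) after 5 Gy and -0.40 ± 0.0841 (adjusted p = 0.0012) after 20 Gy, clear of the spread but short of a 1.5-fold change. At 12 h it was 0.16 and 0.12 after 5 Gy and 20 Gy (adjusted p = 0.22 and 0.39). The value after 20 Gy depended on the rows counted. With named rows only, which for Bad is ENSRNOT00000028712, it was 0.63 (adjusted p = 0.025) and called higher, and with the most abundant row alone it was -0.02.

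Bid, the sensor that caspase-8 cleaves to link death receptors to mitochondria, lies on chromosome 4, 153442218 to 153465203, minus strand. Its annotated row was listed at 0 in every library, and unnamed rows of its locus carried the signal. The control libraries held 9.08, 8.86 and 8.15 FPKM. The 12 h values were 6.02, 7.06 and 4.08 after 5 Gy, all below the control group, and 7.28, 7.998 and 8.40 after 20 Gy. At 24 h they were 8.83, 8.03 and 8.02 after 5 Gy and 10.6, 8.82 and 9.42 after 20 Gy, overlapping the control range. The fitted log2 change 12 h after 5 Gy was -0.55 ± 0.140 (SE; adjusted p = 0.015), short of a 1.5-fold change. It passed without control replicate 3 (-0.60) or without replicate 1 (-0.60) or 2 (-0.70) of the exposed group. In the other comparisons with control it lay between -0.13 and 0.13. With only the most abundant row in place of the sum, the value 12 h after 5 Gy was 0.08.

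**Figure D3:**
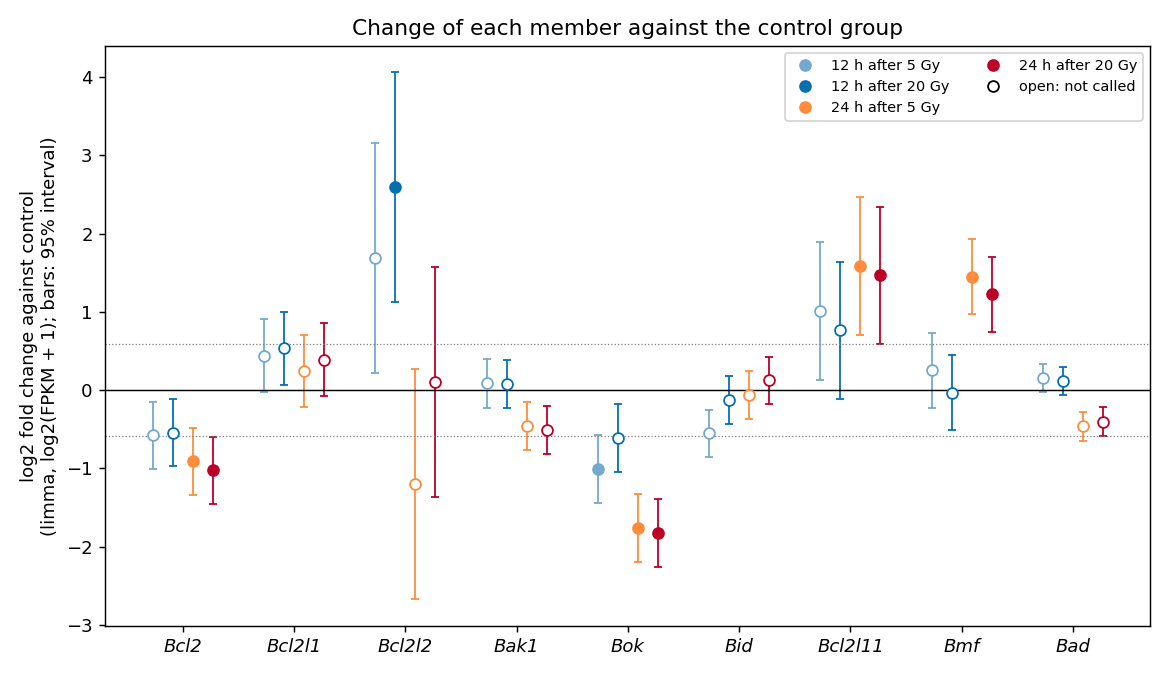
Log2 fold change of each member against the control group from limma on log2(FPKM + 1), with 95% intervals; filled points were called, and dotted lines mark a 1.5-fold change. At 24 h Bcl2l11 and Bmf were called higher and Bcl2 and Bok lower after both doses, and the intervals of Bcl2l2 span several log2 units.

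The time after exposure was also compared within each dose. Between 12 h and 24 h, 4 of 9 members were called after 5 Gy, 1 higher and 3 lower, with 36.4% of all genes called (17.1% higher, 19.3% lower). After 20 Gy 4 of 9 were called, 1 higher and 3 lower, with 36.3% of all genes called (14.1% higher, 22.1% lower). Bmf was higher at 24 h, by 1.20 (log2; adjusted p = 5.5e-04) after 5 Gy and 1.26 (adjusted p = 3.9e-04) after 20 Gy. Bok was lower, with -0.75 (adjusted p = 0.0064) and -1.21 (adjusted p = 2.4e-04). The named row of Bcl2l2 was lower, with -2.89 (adjusted p = 0.0028) and -2.49 (adjusted p = 0.0075), and its wider sum moved by -1.35 and -1.60 and was called too. Bcl2l11 was not called by the rule, with 0.58 and 0.70, but its wider sum was called higher, with 1.57 (adjusted p = 5.9e-04) and 1.31 (adjusted p = 0.0022). Bad was called lower after 5 Gy, with -0.62 (adjusted p = 4.4e-05), against -0.52 (adjusted p = 2.0e-04) after 20 Gy. The call of Bad was lost without replicate 3 of the 12 h group (-0.55) or replicate 2 of the 24 h group (-0.58), after rescaling to TPM (-0.52) and with named rows only (-0.58). With named rows only, Bad was called after 20 Gy instead (-1.09, adjusted p = 1.7e-04). Bak1 was called lower after 20 Gy, with -0.59 (adjusted p = 0.0035), against -0.54 (adjusted p = 0.0059) after 5 Gy. That call rested on a narrow margin, and fell to -0.52 without replicate 1 and -0.55 without replicate 2 at 12 h, and to -0.52 without replicate 2 and -0.54 without replicate 3 at 24 h. It was also lost after rescaling to TPM (-0.55), and with the most abundant row or named rows only (-0.44, adjusted p = 0.39 and 0.41). After 5 Gy, Bak1 was called after quantile normalization (-0.65), and also without replicate 1 at 12 h (-0.65) or at 24 h (-0.64), and Bid (0.49, adjusted p = 0.0093) without replicate 2 at 12 h (0.64). The difference between the doses in these changes was tested as an interaction, in which 0 of 9 members were called by limma and 0 had an unadjusted p under 0.05, with 0.520% of all genes called.

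No member was called between 5 Gy and 20 Gy at either time. At 12 h, 0 of 9 members were called by limma, with 0.123% of all genes called, and 1 had an unadjusted p under 0.05. This was Bid, at 0.43 ± 0.140 (SE, log2, 20 Gy against 5 Gy; unadjusted p = 0.0094, adjusted p = 0.45), higher after 20 Gy in all 3 libraries than in any library after 5 Gy. At 24 h, 0 of 9 were called, with 2.42% of all genes called, and 0 had an unadjusted p under 0.05. For the 7 members other than Bcl2l2 and Bcl2l11, the differences at 24 h were -0.23 to 0.19, and their 95% intervals lay within -0.71 and 0.61. For the named row of Bcl2l2 the interval reached 2.78, while for its wider sum the difference was -0.21, with an interval of -0.44 to 0.0219. For Bcl2l11 the difference at 24 h was -0.12 by the rule, and the libraries of the doses overlapped. For its wider sum it was -0.51, with an interval of -1.15 to 0.13 (limma, adjusted p = 0.37), and was not called. The libraries of that sum did not overlap, with 26.1 to 26.6 FPKM after 5 Gy and 16.6 to 20.2 after 20 Gy. The doses do not share exposed libraries, but both are read against the same controls above.

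The balance of the 2 sides was described as the log2 ratio of summed FPKM, with Bcl2, Bcl2l1 and Bcl2l2 as guardians and the 6 other members as pro-death. It is a value over chosen members, and no test was made. In the control libraries it was -1.23, -1.29 and -1.14. At 12 h it was -0.708, -0.400 and -0.686 after 5 Gy and -0.615, -0.308 and -0.331 after 20 Gy. At 24 h it was -1.07, -0.181 and -0.984 after 5 Gy and -0.937, -0.590 and -0.113 after 20 Gy. Every exposed library lay above the control range, and the 24 h groups were spread widely. The mean was above that of the control group by 0.62 and 0.80 at 12 h and by 0.48 and 0.67 in cells 24 h after 5 Gy and 20 Gy. At 12 h the guardians' summed FPKM was 57.1 ± 5.37 and 66.9 ± 10.6 against 39.0 ± 0.13 in the control group, while the pro-death sum was 86.4 ± 6.97 and 88.8 ± 4.87 against 90.9 ± 4.76. Part of the guardian rise was the named row of Bcl2l2, with means of 9.32 and 15.2 against 2.22. With unnamed rows added by position, the difference of the balance at 12 h was 0.41 after 5 Gy and 0.47 after 20 Gy. At 24 h the pro-death sum by the rule was lower, 69.7 ± 5.08 and 69.5 ± 1.85, while Bcl2l11 and Bmf were higher. Those 2 genes made up 3.0% to 11.6% of it in the control and 12 h libraries and 16.5% to 21.4% at 24 h, and the abundant Bad, Bak1 and Bok the larger part. The size of this fall and these shares depended on the rows counted. With unnamed rows added by position, Bcl2l11 averaged 26.3 and 18.3 FPKM in cells 24 h after 5 Gy and 20 Gy, against 5.09 and 4.43 by the rule. In the control group it averaged 3.49 against 1.11.

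The mean difference of the balance from control kept its direction at 12 h, and at 24 h it did not. With Bax and Pmaip1 among the pro-death members it was smaller at 12 h, 0.25 after 5 Gy and 0.43 after 20 Gy. Without replicate 2 of the cells harvested 24 h after 5 Gy, the difference was 0.19, and with unnamed rows added by position it was -0.08 after 5 Gy and 0.11 after 20 Gy. As the mean log2(FPKM + 1) of the guardians minus that of the pro-death members, which gives a scarce gene the same weight as an abundant one, the difference from control was -0.67 and -0.19 at 24 h. At 12 h it was 0.53 after 5 Gy, where the libraries overlapped the control range, and 0.83 after 20 Gy. By the rule, Bcl2l1 alone gave 68.4% to 98.5% of the guardians' sum, and Mcl1 was not part of it. That share depended on the rows counted, since Bcl2l2 was at 17.7 ± 1.80 FPKM in the control group with unnamed rows added by position.

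**Figure D4:**
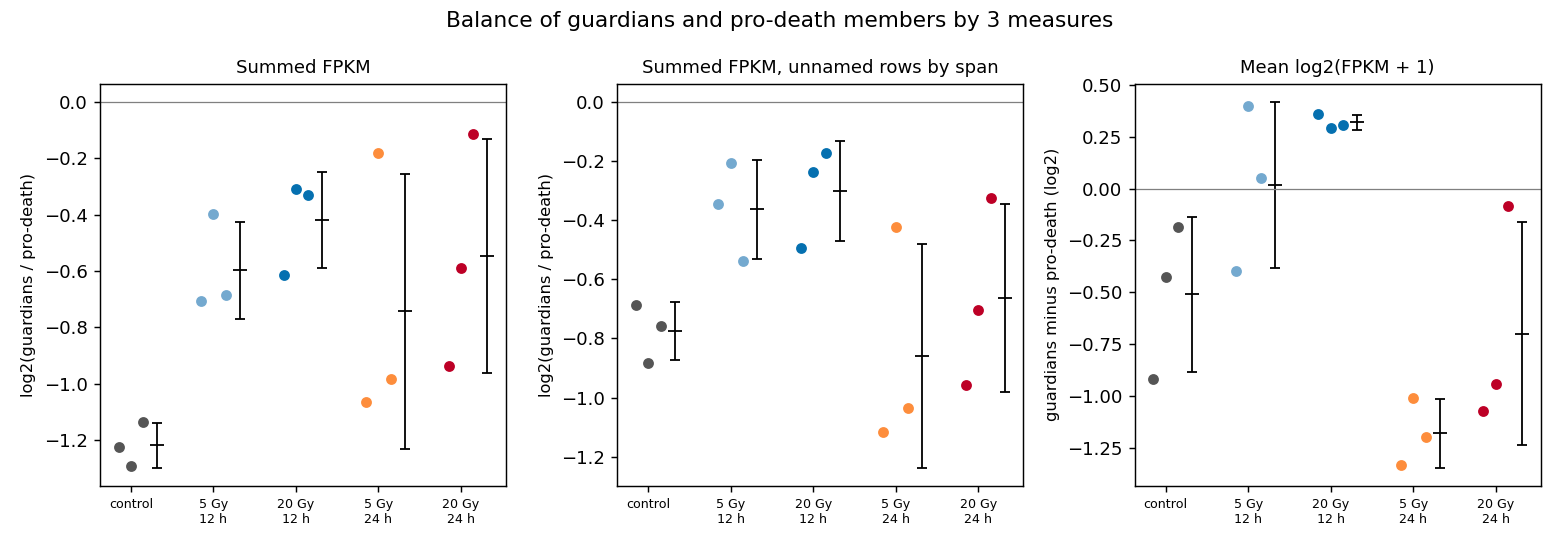
The balance of guardians and pro-death members in each library, as the log2 ratio of summed FPKM (left), the same with unnamed rows added by position (middle) and the difference of mean log2(FPKM + 1) (right), with each group's mean and SD (n = 3). At 12 h the groups lie above the control mean by all 3 measures, and at 24 h their place against the control group changes with the measure.

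The wider pathway was read from 3 lists. Of 13 other BCL2 family members, 11 had a row and 7 passed the filter. Of these, 1 was called higher 12 h after each dose, 2 were higher 24 h after 5 Gy, and 2 were higher and 1 lower 24 h after 20 Gy, beside 9.94% and 8.54% of all genes at 12 h and 41.3% and 40.3% at 24 h, given above. Bax, the third effector and a target of p53, held 47.0, 44.7 and 50.7 FPKM in the control libraries. It held 85.2, 79.5 and 93.5 in cells 12 h after 5 Gy, 83.4, 92.4 and 82.7 in cells 12 h after 20 Gy, 95.7, 95.5 and 101 in cells 24 h after 5 Gy and 104, 80.0 and 104 in cells 24 h after 20 Gy. All 12 exposed libraries were above every control library, and the change on the log2 scale, of 0.84, 0.85, 1.02 and 0.99, was called in each comparison. Bcl2l15, a little studied relative, was listed at 0 in all control and 12 h libraries and held 2.88, 1.97 and 2.43 FPKM 24 h after 5 Gy and 2.71, 2.04 and 1.37 after 20 Gy. Bcl2l15 passed the filter on low values only through these 24 h libraries. Bcl2l12 was lower 24 h after 20 Gy (-0.64, adjusted p = 0.0048). Pmaip1 (NOXA), a BH3-only target of p53, was not called, with 14.2 ± 2.60 FPKM in the control group and 14.3 ± 4.00 in cells 24 h after 20 Gy. Bbc3 (PUMA) was not analysed here.

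All 16 genes of the apoptosome, the caspases and their inhibitors were tested. At 12 h, 1 was higher and 0 were lower after each dose, beside 9.94% and 8.54% of all genes. At 24 h, 5 were higher and 2 lower after 5 Gy, and 4 were higher and 3 lower after 20 Gy, beside 41.3% and 40.3% of all genes. The largest changes 24 h after 20 Gy were in Birc3, an inhibitor of apoptosis (0.114 ± 0.198 to 4.74 ± 0.498 FPKM, log2 fold change 2.38), Cycs, which encodes cytochrome c (23.0 ± 5.28 to 7.95 ± 3.54, -1.48), and Casp8, the initiator caspase of death receptors (3.38 ± 0.249 to 9.67 ± 1.39, 1.28). Their direction 24 h after 5 Gy was the same, with 2.13, -1.31 and 1.26. Birc3 averaged 0.421 and 0.241 FPKM in cells 12 h after 5 Gy and 20 Gy. It thus passed the filter on low values only through the 24 h groups in which it was counted as higher. Of 12 partners and regulators of BCL2 proteins, 11 passed the filter. At 12 h, 0 were higher and 1 was lower after each dose, and at 24 h, 4 were higher and 3 lower after 5 Gy, and 4 were higher and 2 lower after 20 Gy. These counts, too, stand beside 9.94% and 8.54% of all genes at 12 h and 41.3% and 40.3% at 24 h. Fbxw7, a ubiquitin ligase subunit known to mark MCL1 for destruction, went from 1.83 ± 0.291 FPKM in the control group to 14.8 ± 2.75 in cells 24 h after 20 Gy (2.47). Usp9x, a deubiquitinase that spares MCL1, went from 17.3 ± 1.93 to 40.7 ± 8.11 (1.17). Pim1, a kinase that phosphorylates BAD, was lower at 12 h (-1.67 after 5 Gy and -1.25 after 20 Gy) and higher at 24 h (1.54 and 1.68). Foxo3, a transcription factor of the FOXO family, was named after its values were seen, with 16.8 ± 2.19 FPKM in the control group, 32.6 ± 2.02 in cells 24 h after 5 Gy and 30.4 ± 5.90 after 20 Gy. At 24 h after 20 Gy the median log2 fold change of the tested genes was -0.01 for the other BCL2 family members, 0.01 for the apoptosome and caspase list and -0.34 for the partners and regulators, beside -0.14 for all genes. In the same order, the medians 24 h after 5 Gy were 0.07, 0.15 and -0.05, beside -0.05 for all genes. These lists share the control libraries with the members, and a set test was not made.

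For the members called against control, the 2 named genes with the most similar course over the 15 libraries were taken from 8891 genes with a mean FPKM of at least 5, by Pearson's r of log2(FPKM + 1). For Bok these were Epop (r = 0.968) and Suv39h1l1 (0.960), and for Bmf they were Bicral (0.978) and Rin2 (0.966). For Bcl2 they were Tgfb1i1 (0.902) and RF00400, a non-coding RNA family (0.898), for Bcl2l11 LOC103693776 (0.886) and Klhdc3 (0.886), and for Bcl2l2 Hes6 (0.907) and Snf8 (0.885). The points share their groups and libraries, and these values are a description.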

How the data were processed

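The RNA of 15 libraries of rat cells labelled as BMECs was sequenced. The authors trimmed the reads with Trimmomatic, used HISAT2 to map them to Rnor_6.0 and StringTie to assemble transcripts, and deposited FPKM values per transcript in 1 table, used here as it stood. Kallisto counts and the authors' own tests were not used here. The table held 85322 transcripts. FPKM was summed over the rows of a gene, and unnamed rows of loci with several gene names were left out, which applies to Bcl2l2 and Bcl2l11.

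The 17895 genes whose sum averaged 0.5 FPKM or more were tested as log2(FPKM + 1) with limma 3.58.1 in R 4.3.3, with 5 group means, 10 residual degrees of freedom and a variance trend. Genes were called where the two-sided p, adjusted by Benjamini-Hochberg, was under 0.05 and the change 1.5-fold or more. An exact permutation test of 3 against 3 cannot go below p = 0.1 and was not used. The pipeline was tested on simulated data. Depth was searched over a fixed range, using low FPKM values of short single-exon transcripts. The depth kept was the one at which FPKM times length times depth was most often a whole number of bases (tolerance 0.05 bases). That held for 49.3% to 62.7% of 300 values per library, against a median of 9.7% to 11.0% over the depths searched.

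All members were described, and of the other lists the genes with the largest called change at 24 h after 20 Gy (up to 3 a list), Bax, Bbc3 and Pmaip1. The members and lists were chosen with earlier results of these data known. Alternatives were a pseudocount of 0.1, other filters, quantile normalization, TPM, fits of 2 groups and a replicate block. Named rows only, the most abundant transcript and leaving out each library were also tried. A fit without a variance trend was read for the counts of all genes only. Promoters came from RefSeq on GRCr8.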

Additional observations from a re-analysis of the deposited data

Results flagged for a closer look

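Between 12 h and 24 h, a test of the difference between the time points was passed by 4 members after each dose. It compared the times within each dose, in the limma model of log2(FPKM + 1) over all 15 libraries. After 5 Gy these were Bad (-0.62), the named row of Bcl2l2 (-2.89), Bmf (1.20) and Bok (-0.75). After 20 Gy they were Bak1 (-0.59), the named row of Bcl2l2 (-2.49), Bmf (1.26) and Bok (-1.21). The share of all genes called in these comparisons was 36.4% and 36.3%. Time after exposure and time in culture cannot be told apart in them, as all libraries of the later time were exposed.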

How the results depend on the processing

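Bcl2, Bok, Bcl2l11 and Bmf kept their calls and directions 24 h after both doses under the pseudocounts, filters, scalings and row choices tried. So they did in fits of 2 groups, with a replicate block and with any single library left out. The fit without a variance trend was read only for the counts of all genes, not for these members. At 12 h the counts were small and moved. The count after 5 Gy, 1 member, was 2 with a pseudocount of 0.1, 3 with quantile normalization and 2 with unnamed rows assigned by position. The count after 20 Gy, 1 member, was 2 with quantile normalization, with named rows only and without unnamed rows under 500 bases, and 0 with unnamed rows assigned by position, where Bcl2l2 fell short of a 1.5-fold change. Leaving out 1 library at a time, the counts of members called were 1 to 3 (12 h, 5 Gy), 0 to 2 (12 h, 20 Gy), 4 to 5 (24 h, each dose), 3 to 5 (24 h against 12 h, 5 Gy), 3 to 4 (24 h against 12 h, 20 Gy) and 0 for the dose comparisons and the interaction. The cause of these changes was not tested, except that the positional rows change Bcl2l2 and Bcl2l11 by construction.

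The difference of the balance from control moved with its definition. With Bax and Pmaip1 among the pro-death members it was 0.25 (12 h, 5 Gy), -0.18 (24 h, 5 Gy), 0.43 (12 h, 20 Gy) and 0.0508 (24 h, 20 Gy). With only named rows it was 1.20 (12 h, 5 Gy), -0.20 (24 h, 5 Gy), 1.73 (12 h, 20 Gy) and 0.36 (24 h, 20 Gy). With unnamed rows assigned by position it was 0.41 (12 h, 5 Gy), -0.0828 (24 h, 5 Gy), 0.47 (12 h, 20 Gy) and 0.11 (24 h, 20 Gy). Without unnamed rows under 500 bases it was 0.80 (12 h, 5 Gy) and 1.08 (12 h, 20 Gy). As a difference of mean log2(FPKM + 1) it was -0.67 (24 h, 5 Gy) and -0.19 (24 h, 20 Gy). Leaving out 1 library it ranged over 0.52 to 0.68 (12 h, 5 Gy), 0.19 to 0.64 (24 h, 5 Gy), 0.75 to 0.90 (12 h, 20 Gy) and 0.45 to 0.87 (24 h, 20 Gy). Leaving out Mcl1 was not run, since Mcl1 was not part of the sums.

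Changes of sign were found in log2 fold changes that were not called. With only the most abundant transcript these were Bak1 -0.0366 (12 h after 5 Gy), Bid 0.0763 (12 h after 5 Gy), Bid 0.57 (24 h after 5 Gy), Bak1 -0.51 (12 h after 20 Gy), Bid 0.35 (12 h after 20 Gy), Bad -0.0229 (12 h after 20 Gy), Bid -0.0812 (24 h against 12 h after 20 Gy), Bcl2 0.0038 (20 Gy against 5 Gy at 24 h) and Bid -0.30 (20 Gy against 5 Gy at 24 h). With only named rows these were Bak1 -0.0366 (12 h after 5 Gy), Bak1 -0.51 (12 h after 20 Gy), Bcl2l1 -0.17 (20 Gy against 5 Gy at 12 h), Bad 0.41 (20 Gy against 5 Gy at 12 h), Bcl2 0.0309 (20 Gy against 5 Gy at 24 h), Bcl2l1 -0.19 (20 Gy against 5 Gy at 24 h) and Bad -0.0956 (20 Gy against 5 Gy at 24 h). Rescaled to TPM these were Bid 0.0731 (24 h after 5 Gy) and Bmf 0.0021 (12 h after 20 Gy). With unnamed rows assigned by position these were Bcl2l2 -1.17 (24 h after 20 Gy) and Bcl2l2 -0.21 (20 Gy against 5 Gy at 24 h). With quantile normalization these were Bak1 0.0092 (20 Gy against 5 Gy at 12 h), Bak1 0.0357 (20 Gy against 5 Gy at 24 h) and Bok 0.0542 (20 Gy against 5 Gy at 24 h). Of these, only Bcl2l2 24 h after 20 Gy passed the threshold in the other direction.

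With 1 library left out, the sign also changed in log2 fold changes that were not called, which ranged over -0.0002 to 0.20 for Bak1 12 h after 5 Gy, -0.26 to 0.0964 for Bmf 12 h after 20 Gy, -0.61 to 0.60 for Bcl2l2 24 h after 20 Gy, -0.34 to 0.0309 for Bcl2l1 24 h against 12 h after 20 Gy, -0.0388 to 0.13 for Bcl2 20 Gy against 5 Gy at 12 h, -0.0263 to 0.28 for Bcl2l1 20 Gy against 5 Gy at 12 h, -0.12 to 0.10 for Bak1 20 Gy against 5 Gy at 12 h, -0.54 to 0.15 for Bcl2l11 20 Gy against 5 Gy at 12 h, -0.12 to 0.0353 for Bad 20 Gy against 5 Gy at 12 h, -0.40 to 0.0577 for Bcl2 20 Gy against 5 Gy at 24 h, -0.0497 to 0.38 for Bcl2l1 20 Gy against 5 Gy at 24 h, -0.17 to 0.0452 for Bak1 20 Gy against 5 Gy at 24 h, -0.22 to 0.14 for Bok 20 Gy against 5 Gy at 24 h and -0.38 to 0.0858 for Bcl2l11 20 Gy against 5 Gy at 24 h. Of the values of single members, 607 of 640 under the other planned settings, 388 of 432 with a library left out and 136 of 144 under the settings added after the values were seen kept their sign and their side of the threshold.

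With the replicate number as a block, no count of members called changed, and the genes called went from 1779 to 1748 (12 h, 5 Gy), from 1528 to 1495 (12 h, 20 Gy), from 7395 to 7370 (24 h, 5 Gy), from 7219 to 7209 (24 h, 20 Gy), from 22 to 16 and from 433 to 410 between doses at 12 h and 24 h, and from 93 to 69 in the interaction. No pairing by number was seen in the deviations from the group means. Same-numbered libraries correlated at -0.177 to 0.232 and others at -0.209 to 0.203, and 4 of 15 were closest to their own number. With 3 libraries per group this cannot show whether same-numbered cultures shared animals or a batch. Quantile normalization moved the share of higher calls from 38.9% to 49.8% for 24 h against 12 h after 20 Gy, and from 39.5% to 56.9% between doses at 24 h, where rescaling to TPM gave 29.4%. Between doses at 12 h, 22 genes were called, 38 after rescaling to TPM and 48 after quantile normalization, and in the interaction 93 and, after rescaling to TPM, 162. Rescaling to TPM moved the median of all genes 24 h after 5 Gy from -0.05 to 0.06. By the rows of the rule, Bcl2 and Bcl2l2 had the least aligned sequence, a median of 22.3 and 54.2 kilobases per library, against 413 for Bcl2l1. In their lowest libraries, Bcl2l2 held 0.538, Bcl2l11 4.77 and Bcl2 8.43 kilobases. For Bcl2l2 this counts the named row only, which held 1.9% to 62.5% of its wider sum. Low coverage there follows the row rule as well as depth.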
